A study of Bos taurus with 16 samples.

Results

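The HOX, PAX, LHX, TBX and NKX genes encode transcription factors that pattern the body axis and the organs after implantation, and the question here was which of them had reads in bovine blastocysts and in which embryo pools. Members were chosen by gene name alone, as every row named HOXA to HOXD with a number, PAX, LHX or TBX with a number, or NKX with a number. This gave 75 loci of the 22358 in the count tables, under 73 gene names, since LHX1 and PAX3 were each listed at 2 loci. The families held 34 HOX, 12 TBX, 10 PAX, 10 NKX and 9 LHX loci. No locus of these families carried a second gene name.

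HOX genes lie in clusters A to D, and during development they are switched on from the head end of a cluster to the tail end as the body axis extends. PAX genes encode paired-box factors of the kidney, eye, thyroid and muscle lineages, LHX genes LIM-homeodomain factors of the forebrain and motor neurons, NKX genes homeodomain factors of the heart, lung, thyroid, pancreas and neural tube, and TBX genes T-box factors of the heart, limbs and mesoderm. In early embryonic cells most of them are held silent by Polycomb complexes, which mark histones at their promoters.

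The embryos came from 8 lactating Holstein cows, 4 fed a control diet and 4 fed the same basal diet supplemented with rumen-protected methionine (methionine-rich). The expanded blastocysts of each cow were divided into 2 pools, named by treatment, cow and pool (C1.1 to C4.2 and M5.1 to M8.2), and their RNA was amplified before sequencing. The labels call the tissue IVF embryos, whereas the methods of the study describe embryos flushed from superovulated and inseminated cows. According to those methods a pool held a few blastocysts at most, and methionine-rich pools often held more of them than control pools. The study also lists a lower RNA quality number for most methionine-rich pools than for any control pool with a value. Treatment, embryo number and RNA quality thus cannot be told apart in the comparisons below. Pool C3.2 stood apart, with 1745048 reads on loci against 5624126 to 7826542 in the other 15 pools. It was left out, and 7 control and 8 methionine-rich pools remained. The study left out the same pool. The 15 pools had a median of 7257007 reads. In them 3 reads corresponded to between 0.383 and 0.533 CPM, the usual scale on which the reads of a locus are divided by the total of the pool. A locus with at least 3 reads in a pool was counted as found there. The amplified reads are not independent molecules, so floors and counting intervals cover counting error only.

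Most markers of the blastocyst were found in every pool. Of 14 marker genes 9 were found in all 15 pools. Among them were the trophectoderm genes GATA3, TFAP2C, TEAD4, KRT8 and KRT18 and the pluripotency genes POU5F1 and SOX2. CDX2, ELF5 and NANOG were found in some pools only, with 0 to 203, 0 to 80 and 1 to 202 reads in control. In methionine-rich pools they had 0 to 37, 0 to 73 and 2 to 268. SOX17 had 0 reads in every pool and GATA4 was found in 1. The summed level of the 14 ranged from 3864 to 9950 CPM in the control pools and from 3194 to 7261 CPM in the methionine-rich pools. KRT18 was the largest part of it, with means of 4178 CPM in control and 2887 CPM in methionine-rich pools.

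Most loci of the developmental families had few or no reads. Of the 75 loci, 3 (4%) were found in every one of the 15 pools, 27 (36%) in more than 1 pool but not all, and 15 (20%) in exactly 1 pool. A further 8 had reads but never 3 in a pool, and 22 (29.3%) had 0 reads in all 15 pools. Over all 22358 loci the corresponding shares were 26.9% found in every pool, 33.4% in some, 10.4% in exactly 1 and 22.1% at 0. The families therefore differed from all loci most in the share found everywhere and in the share found in a single pool, while the share at 0 was closer. At this depth, 0 reads in a pool allow a level of up to the 3-read floor given above.

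**Figure D1:**
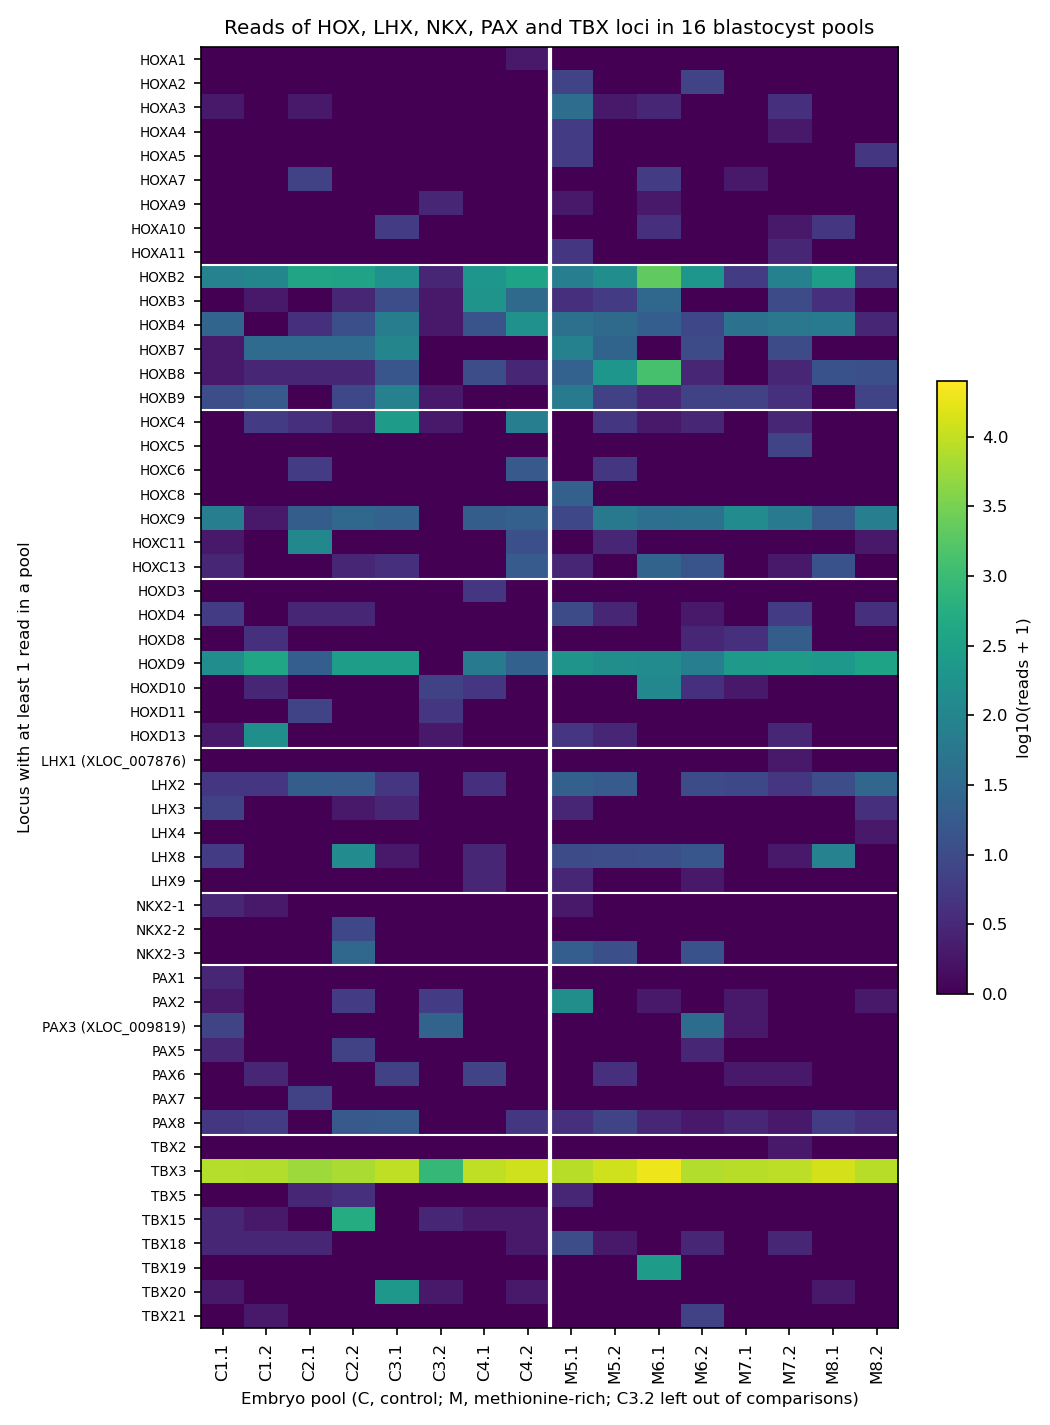
Reads of the loci of these families with at least 1 read in any of the 16 pools, on a log10(reads + 1) colour scale, with pools in columns (control left, methionine-rich right of the white line) and loci in rows grouped by family. TBX3 is bright in all columns, HOXD9 has 20 reads or more in all but C3.2, HOXB2 is faint in C3.2, M7.1 and M8.2 (2, 5 and 4 reads), and most other rows hold 1 or a few bright cells.

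The NKX family was the most silent. Of its 10 loci 7 had 0 reads in all 15 pools, including NKX2-5 of the early heart, NKX6-1 of pancreatic beta cells and NKX2-4, NKX2-8, NKX1-2 and NKX3-2. NKX2-1, a factor of the thyroid and lung, had at most 2 reads in a pool. NKX2-2, a neural tube and pancreas factor, had 8 reads in C2.2 and 0 in the other 14. NKX2-3, a factor of the gut and spleen, was found in 4 pools, with 29 reads in C2.2, 20 in M5.1, 11 in M5.2 and 12 in M6.2. In the other families the loci at 0 were HOXA13, HOXB1, HOXC12, HOXD1 and HOXD12, LHX5, LHX6 and 1 of the LHX1 loci, PAX4, PAX9 and 1 of the PAX3 loci, and TBX1, TBX4, TBX6 and TBX10.

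**Figure D2:**
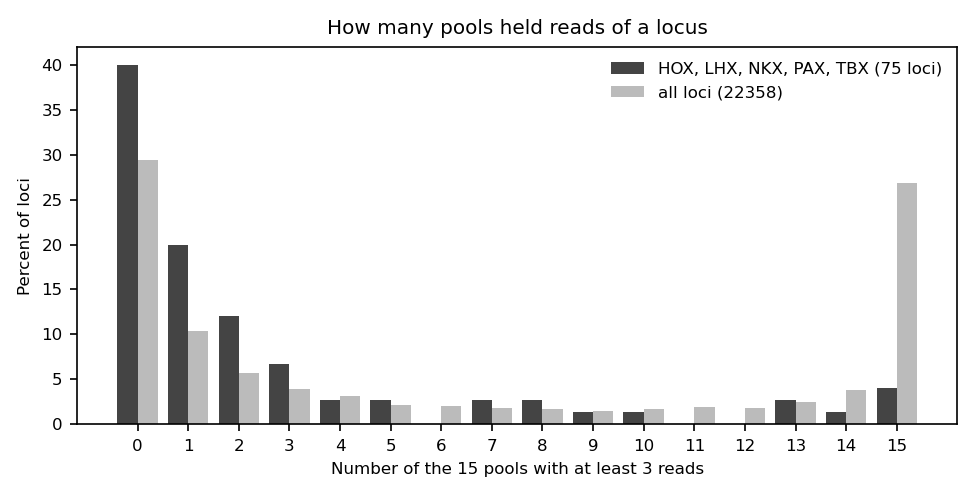
Percent of loci (vertical axis) by the number of the 15 pools with at least 3 reads (horizontal axis), for the 75 loci of the families (dark bars) and for all 22358 loci (light bars). In the families 4% of loci stand at 15 pools, against 26.9% of all loci.

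The 3 loci found in every pool were TBX3, HOXB2 and HOXD9. TBX3 encodes a T-box repressor known from pluripotent stem cells and from limb and mammary development. Control pools held 5775 to 12217 TBX3 reads (median 7992), and methionine-rich pools 7767 to 19730 (median 8774.5). The highest values were in M6.1 (19730 reads) and M8.1 (13330), above every control pool. The other methionine-rich pools lay within the control range. In CPM the level was 1253 ± 238 (SD, n = 7 pools) in control and 1523 ± 537 (SD, n = 8 pools) in methionine-rich. Over cows the difference was 268 CPM (two-sided exact permutation test over the 70 assignments of 8 cows to 4 and 4, p = 0.257, and 0.771 after Benjamini-Hochberg adjustment over the 3 loci run, where 0.0286 is the smallest p the design allows). On the log2 scale methionine-rich exceeded control by 0.27 (edgeR's exact test, FDR = 0.975). DESeq2 estimated 0.29 with a standard error of 0.24. Pool C3.2 had 848 reads, or 486 CPM, below every other pool.

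HOXB2, a hindbrain patterning factor, had 90 reads in the lowest control pool, a median of 203 and 376 in the highest. In the methionine-rich pools the lowest count was 4 (M8.2), the median 115 and the highest 2077 (M6.1). The methionine-rich pools thus reached both above and below all control pools, with 5 reads in M7.1 as the other very low value. The level was 35.7 ± 20.7 CPM (SD, n = 7) in control and 50 ± 95.2 CPM (SD, n = 8) in methionine-rich, and the SD exceeded the mean in the latter. Over cows the methionine-rich mean was 16 CPM higher (exact permutation test, p = 0.943, adjusted 0.971), but without pool M6.1 the difference was -15 CPM (exact permutation test, p = 0.257). No direction can therefore be given for HOXB2.

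HOXD9, a factor of the trunk and limbs, had between 20 and 401 reads in control (median 141) and between 74 and 350 in methionine-rich (median 205). The 3 lowest values were in control pools (C2.1, C4.2 and C4.1), the highest was also in a control pool (C1.2), and the methionine-rich pools lay within this range. Means were 25.5 ± 22.2 CPM (SD, n = 7) and 27.9 ± 11.5 CPM (SD, n = 8), a difference of 0.667 CPM over cows (exact permutation test, p = 0.971, adjusted 0.971). The pools of a cow could lie far apart, as in cow 2, where C2.1 had 20 reads and C2.2 had 283.

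**Figure D3:**
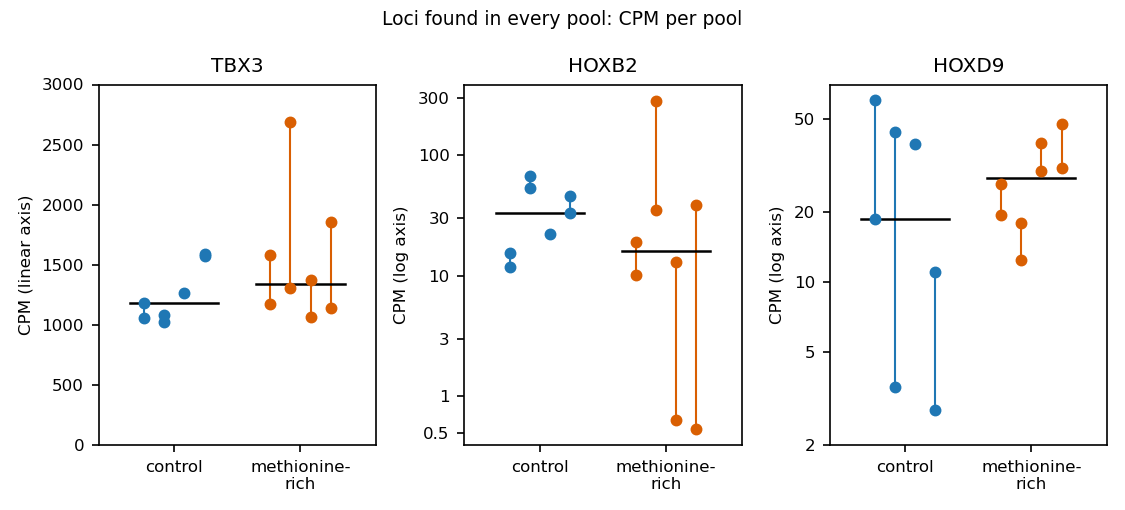
CPM per pool of TBX3 (linear axis), HOXB2 and HOXD9 (log axes) in control (blue) and methionine-rich (orange) pools. Each point is a pool, vertical lines join the 2 pools of a cow, and black bars mark the median over pools. The treatments overlap for all 3 loci, and M6.1 is the highest point for TBX3 and HOXB2.

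Near these in occurrence were HOXC9, HOXB4 and LHX2. HOXC9, a thoracic patterning gene, was found in 14 pools and had 1 read in the remaining one, C1.2, with 1 to 76 reads in control (median 21) and 8 to 130 in methionine-rich (median 50.5). HOXB4, a factor of blood stem cells and the neck region, was found in 13 pools, with 0 to 168 reads in control (median 13) and 2 to 62 in methionine-rich (median 36.5). LHX2, a factor of the eye and forebrain, was found in 13 pools with low counts throughout, 0 to 19 reads in control and 0 to 27 in methionine-rich. For all 3 the treatments overlapped, with FDR between 0.893 and 1 by edgeR's exact test. PAX8, a thyroid and kidney factor, had at least 1 read in 13 pools but at most 17, and was found in 9.

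By cluster, HOX reads were uneven. Of the 7 HOXB loci 6 were found in at least 1 pool and all 6 reached 30 reads in some pool, whereas of the 10 HOXA loci 7 were found but only HOXA3 reached 30. Summed over a cluster, HOXB had between 24 and 3462 reads per pool with a median of 353, HOXD between 22 and 561 with a median of 220, HOXC between 6 and 281 with a median of 69, and HOXA between 0 and 58 with a median of 4. These are reads, which also depend on transcript length and on the number of loci summed. Along the clusters, 5 of the 8 loci of groups 1 to 3 were found, all 12 of groups 4 to 8 and 10 of the 14 of groups 9 to 13. There was thus no restriction to the head end of the clusters.

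HOXA reads came mainly from 1 pool. M5.1 held 58 of them, with 36 reads of HOXA3, 7 of HOXA2, 5 each of HOXA4 and HOXA5 and 4 of HOXA11. The control pools together had 14 HOXA reads and the methionine-rich pools 93. M5.1 also had the highest count of HOXC8 (21 reads, and 0 in the other 14 pools) and of PAX2. It was the pool with the most loci of these families found, 23 of 75, and with the largest share of all loci found, 48.5%.

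A single pool held nearly all reads of several loci. Over 15 pools, 24 of the 75 loci had at least 30 reads, and in 6 of the 24 (25%) the highest pool held at least 90% of them, against 676 of 12850 loci (5.26%) in the whole table. A window of 30 to 3000 reads in all leaves out the most abundant loci but does not match abundance within it. Inside it the shares were 27.3% of 22 loci of the families and 7.08% of 9491 loci. The median share held by the highest pool was 70% in the former and 30.2% in the latter.

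TBX15, TBX20 and TBX19 were the clearest cases. TBX15, a skeletal and adipose factor, had 525 reads in C2.2, or 81.2 CPM (95% Wilson interval 74.6 to 88.5), with 2 reads in C1.1, 1 each in C1.2, C4.1 and C4.2, and 0 in C2.1, C3.1 and all 8 methionine-rich pools. The other pool of the same cow thus had none. In C2.2 the leukocyte, endometrium and cumulus markers described below summed to 26.3, 39.6 and 13.9 CPM. TBX20, a heart factor, had 224 reads in C3.1, 1 each in C1.1, C4.2 and M8.1, and 0 in the other 11 of the 15. TBX19, the factor of pituitary corticotrophs, had 258 reads in M6.1, or 35.2 CPM (95% Wilson interval 31.1 to 39.7), and 0 in the other 14 pools. Of the 12 TBX loci, 6 were found in exactly 1 pool, the other 3 of them being TBX5, TBX18 and TBX21 with at most 10 reads, and only TBX3 was found in more than 1.

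HOXD13, a factor of the digits, had 155 reads in C1.2, 4 in M5.1 and at most 2 elsewhere. PAX2, a kidney and eye factor, had 146 reads in M5.1, 5 in C2.2 and at most 1 elsewhere among the 15. HOXD10, a hindlimb patterning gene, had 113 reads in M6.1 and at most 4 elsewhere among the 15. HOXC11, a tail-end HOXC gene, had 111 reads in C2.1, 11 in C4.2 and at most 2 elsewhere. In each of these loci 1 pool lay far above the rest, and the second pool of the same cow held at most 3 reads.

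**Figure D4:**
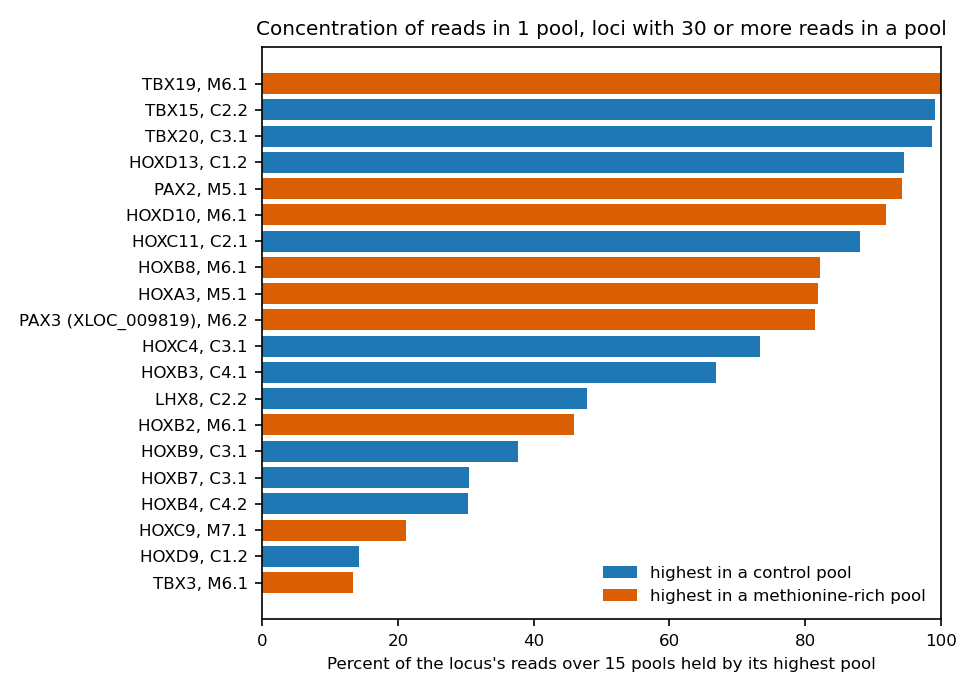
Percent of a locus's reads over the 15 pools that came from its highest pool (horizontal axis), for loci with at least 30 reads in a pool, with that pool named beside the gene. Blue bars have their highest pool among the control and orange bars among the methionine-rich pools. TBX19 reaches 100% and TBX3 lies lowest at 13.4%.

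The highest pool differed between loci. Of the 45 loci found at least once, 9 had their highest count in M5.1, 6 each in C2.2, C3.1 and M6.1, and 0 in M5.2 and M8.1. In M6.1 these included TBX3, HOXB2, HOXB8, HOXD10, HOXC13 and TBX19, and the T-box gene EOMES, outside the families by name, had 62 reads there and at most 1 in the other pools. The leukocyte markers summed to 2307 CPM in C2.1, where 12 of 14 were found, against 1.8 to 42.7 CPM in the other 6 control pools and 2.68 to 21.9 CPM in the methionine-rich pools (195 CPM in C3.2). Most of the sum in C2.1 came from LAPTM5 (6969 reads), NKG7 (2698), TYROBP (2122) and LCP1 (1031). CD68 (45 reads), CD74 (14) and CORO1A (14) were also highest there. PTPRC, CD14, CSF1R, FCER1G, AIF1 and CD3D were highest in other pools and CD3E had 0 reads. C2.1 was the highest pool for HOXC11, HOXA7, HOXD11 and PAX7, and TBX21, the T-box factor of lymphocytes, had 0 reads there. Markers of endometrium and stroma summed to 16.4 to 156 CPM in control pools and 6.64 to 205 CPM in methionine-rich pools. Of those 12 markers 6 were found in M6.1 and 6 in M7.2, and the sum was 70.6 CPM in M6.1, below that of C4.2 (156 CPM), M8.1 (205 CPM) and M8.2 (88 CPM). MSX1 (1251 reads) gave most of the sum in M8.1 and COL1A2 (1069 reads) most of that in C4.2, and each was found in every pool. PGR, ESR1 and PDGFRB were found in M6.1 only (183, 8 and 6 reads). Other markers were highest elsewhere, COL3A1 in C1.2 (330), FOXA2 in M8.2 (300) and LUM in M8.1 (117). ACTA2 was highest in M8.1, DCN in M6.2, and COL1A1 and MUC1 in M7.2. The cumulus and granulosa markers summed to 1.5 to 57 CPM in control and 3.3 to 48.4 CPM in methionine-rich pools, highest in C4.2 and M6.1, with FOXL2 and AMHR2 at 0. Between treatments, edgeR's exact test called 4 of the 8 leukocyte markers tested, all higher in control. These were LAPTM5, NKG7, TYROBP and LCP1, which had most of their reads in C2.1. It called 0 of 7 endometrium and stroma markers (4 at an unadjusted p under 0.05), 0 of 2 cumulus markers (1) and 0 of 12 blastocyst markers (1). Over all 10519 tested loci 0.77% were called higher in control, and 898 had an unadjusted p under 0.05 by the exact test. The quasi-likelihood test called 0 of each marker list. The part of such cells in the reads of these families was not tested.

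The genes next to the concentrated loci were looked up in the RefSeq annotation of the assembly ARS-UCD2.0, which is not the build of the files and was used for gene order only. For 12 loci with at least 30 reads in 1 pool that also held at least 50% of their reads, 24 neighbours were listed, of which 19 were matched to the tables and 15 were found in a pool. Neighbours were the genes before and after by start position, so in the HOX clusters they need not be the nearest genes. HOXB3 was thus placed between HOXB7 and HOXB6, and HOXB7 was listed for HOXB8 and again for HOXB3. In 3 of the 15 the highest pool was the same as that of the family member. These were HOXA4 beside HOXA3, LOC780968, with 8 reads, beside TBX20, and SFT2D2, a vesicle transport gene, beside TBX19. SFT2D2 had 131 reads in M6.1, 101 in M7.2, 28 in M8.2, 10 in M5.1, 8 in M7.1, 7 in M5.2 and 0 in M6.2, M8.1 and all 7 control pools, so its reads also appeared in pools where TBX19 had none. In contrast, WARS2 beside TBX15 had 1077 reads in C2.2 within a range of 371 to 1961 over the 15 pools.

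Between the pools of a cow, occurrence was shared little more than between cows. In the 14 pools whose sister pool was also analysed, 27 loci were found in 2 to 13 pools, and of the 128 times such a locus was found the other pool of the cow also had it 68 times (53.1%), against 46.7% in pools of other cows on the same diet. For all loci found in 2 to 13 pools the shares were 63.3% and 62.4%. Among loci found in 2 to 6 pools they were 22.6% and 17.1% for these families and 24.7% and 23.1% for all loci. These shares are descriptive, since the pools enter many pairs.

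Occurrence by diet was balanced. The control pools had between 10 and 16 loci of the families found, 12.7 ± 2.43 (SD, n = 7), and the methionine-rich pools between 8 and 23, 13.9 ± 4.42 (SD, n = 8). The share of all loci found was 43.7% ± 1.74 and 43.7% ± 2.89, respectively. Of the 45 loci found at least once, 26 (57.8%) were found under both diets, 9 (20%) in control pools only and 10 (22.2%) in methionine-rich pools only, against 80.1%, 9.71% and 10.2% of all loci found. Loci found in exactly 1 pool can by construction occur under 1 diet only, and of the 15 such loci 8 were in a control and 7 in a methionine-rich pool. No locus of the families was found in 3 or more cows of one diet and in none of the other. Without cow 2, whose pools held the highest count of 10 of the 45 loci, the number found in control pools only was 3, and without cow 5 it was 14, with 6 in methionine-rich pools only.

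**Figure D5:**
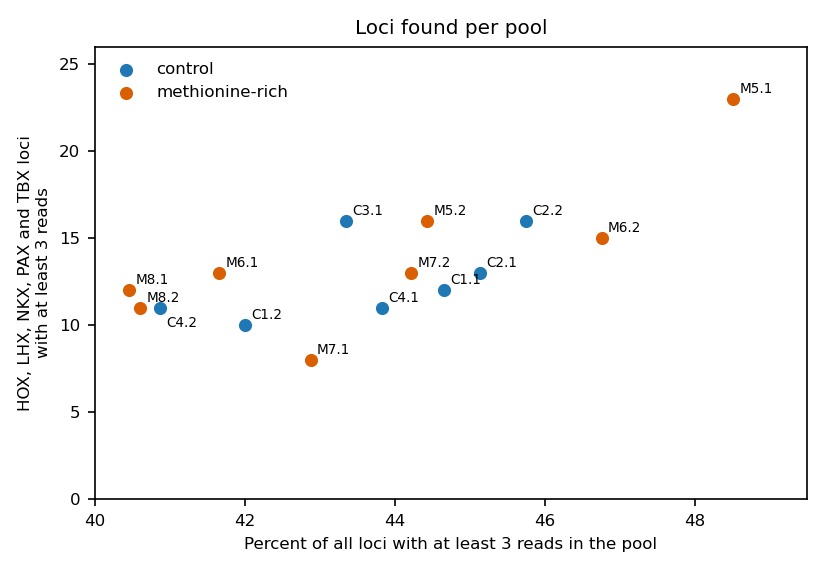
Number of loci of these families with at least 3 reads (vertical axis) against the percent of all loci with at least 3 reads (horizontal axis, from 40%) in each control (blue) and methionine-rich (orange) pool. The 7 control pools lie between 10 and 16 loci and the 8 methionine-rich pools between 8 and 23, with M5.1 highest on both axes.

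For the comparison of treatments, 10519 loci whose CPM over the 15 pools added up to 15 or more were tested, of which 19 were from these families. A locus with reads in a single pool passed this filter only through that pool. A locus was called when it differed by 2-fold or more at an FDR below 0.10. By edgeR's exact test 2 loci of the families were called, TBX15 and HOXB8, where 1.05% of all tested loci were called. TBX15 was the 1 call higher in control, where the background was 0.77%, and HOXB8 the 1 call higher in methionine-rich, where it was 0.276%. By edgeR's quasi-likelihood test, which allows for the uncertainty of the dispersion, 0 loci of the families and 0% of all tested loci were called. By that test 909 of the 10519 loci and 8 of the 19 had an unadjusted p under 0.05. These 8 were HOXB8, HOXC4, HOXC11, HOXD13, PAX2, TBX15, TBX19 and TBX20. All but HOXB8 passed the filter only through their highest pool, so the 8 of 19 cannot be read against the share over all loci.

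For TBX15 the log2 fold change was -9.11 (edgeR's exact test, FDR = 0.0169, and 0.312 by the quasi-likelihood test). Since all methionine-rich pools were at 0, the fitted value depends on the prior count. With the reads of a group pooled, control was at least 212-fold higher than the floor of 3 reads over the 8 methionine-rich pools, a bound that rests on C2.2. Without C2.2, or without cow 2, the remaining 5 reads fell under the filter and TBX15 was not tested. DESeq2 estimated -2.002 with a standard error of 3.05 and gave no FDR. At its default settings it replaces counts flagged as outliers in groups of this size. Counts of a single high pool may thus not have entered its estimates, also for HOXB2 and HOXB8 (its estimate for TBX19 was 0). For TBX19 the FDR was 0.335 by the exact test, and the pooled methionine-rich level was at least 71.7-fold higher than the floor over the 7 control pools, resting on M6.1 alone.

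HOXB8, a factor of the trunk and of myeloid progenitors, had 1334 reads in M6.1, 206 in M5.2, 23 in M5.1, 12 in M8.1, 11 in M8.2, 2 each in M6.2 and M7.2 and 0 in M7.1. In the control pools it had 14 reads in C3.1, 10 in C4.1, 1 in C1.1 and 2 in each of the other 4. The methionine-rich pools reached higher, but 3 of the 8 were at or below the control median of 2. The log2 fold change was 5.17 (edgeR's exact test, FDR = 0.0415, quasi-likelihood test 0.312), and DESeq2 estimated 2.57 with a standard error of 1.14 and FDR = 0.508. Without M6.1 it was 2.69 (exact test, FDR = 0.503). The FDR was also above 0.10 without cow 1 (0.145), cow 2 (0.184) or cow 6 (0.422), and without C2.1 (0.102). Its flanking genes in the cluster, HOXB7 and HOXB9, had 0 and 2 reads in M6.1.

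HOXC4 lay just outside the threshold, at -5.23 on the log2 scale (edgeR's exact test, FDR = 0.111, quasi-likelihood test 0.312). Its reads were 255 in C3.1, 75 in C4.2, 5 in C1.2, 1 in C2.2, 3 in C2.1, and none in C1.1 or C4.1, and at most 4 in any methionine-rich pool. It was found in pools of all 4 control cows and of 1 methionine-rich cow. Its FDR passed 0.10 by DESeq2 (0.0966), with the pools of a cow summed (0.0626) and with all 16 pools (0.0708), by the exact test in the last 2. It also passed by the exact test without cow 1 (0.0396), cow 2 (0.0733), cow 4 (0.0773) or C2.2 (0.0857), and TBX20 did without cow 1 (0.0859), cow 2 (0.0769) or cow 4 (0.0773). Without a methionine-rich cow neither passed, the FDR by the exact test lying between 0.220 and 0.278 for HOXC4 and between 0.256 and 0.351 for TBX20. Without cow 3, whose pool C3.1 held most of their reads, both fell under the filter and were not tested. In the 15 pools TBX20 (log2 fold change -6.97) had FDR = 0.174 and HOXC11 (-5.58) had 0.287 by edgeR's exact test, each with its reads mainly in 1 control pool. Among the other HOXB genes, HOXB3, a hindbrain gene, had 189 reads in C4.1, 32 in C4.2 and at most 29 elsewhere, HOXB7 0 to 100 reads and HOXB9 0 to 80, all with FDR of at least 0.673 by the exact test. LHX8, a forebrain and oocyte factor, had 130 reads in C2.2, 89 in M8.1 and at most 14 elsewhere (FDR = 1 by the exact test).

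Polycomb genes and partners of these factors varied in occurrence. Of 29 Polycomb and related loci 15 were found in every pool, 10 in some and 1 had 0 reads. The most abundant by reads were JARID2, a cofactor of the methylating complex, with 2660 to 8531 reads in control and 3255 to 7035 in methionine-rich pools, AEBP2, another cofactor of that complex, with 448 to 2192 and 767 to 2301, and KDM2B, a demethylase that recruits the other complex, with 543 to 1569 and 575 to 1637. Of the 23 tested, 0 passed edgeR's exact test and 0 its quasi-likelihood test (0 at an unadjusted p under 0.05 by either), with a median log2 fold change of -0.07 against -0.05 over all tested loci. Of 18 loci of DNA-binding partners and cofactors (PBX, MEIS, PKNOX, LDB, LMO and TLE genes) 5 were found in every pool and 11 in some, led by the corepressors TLE3 (443 to 1428 reads over the 15 pools), LMO4, a LIM-only protein, and TLE1, and 0 of 13 tested passed either test (2 at an unadjusted p under 0.05 by each), with a median log2 fold change of -0.68. Of the T-box genes outside the families, MGA was found in every pool with 89 to 2876 reads, EOMES in M6.1 only, TBR1 in 2 control pools, and T had 0 reads.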

How the data were processed

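Amplified RNA of 16 blastocyst pools was sequenced. The authors aligned the reads to bosTau7 (TopHat2 2.0.4 and Cufflinks 2.0.2 in the submitters' processing notes) and obtained gene counts with htseq-count. What they deposited are raw counts, in 22552 rows for 22358 loci. 182 loci are listed once per gene name and were entered once. The strand setting of the counting is not given in the sources used here, so reads of overlapping genes, as in the HOX clusters, may not be separable, and paralogs may share reads. No pair of pools held the same library (smallest chi-square per degree of freedom 64.4). Nothing says that the 2 pools of a cow are independent, and p-values over pools measure the spread between pools.

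Following the study, loci with summed CPM of at least 15 over 15 pools were tested with edgeR 4.0.16 (R 4.3.3; TMM, common and tagwise dispersions, exact test, Benjamini-Hochberg). The study, with an older edgeR version, tested and called more genes than here, so the shares called here are not its own. Log2 fold changes are methionine-rich over control. Alternatives were edgeR's quasi-likelihood test, DESeq2 1.42.0 and limma 3.58.1 with voom, other filters and scaling, the pools of a cow summed, and each cow left out. DESeq2 ran at its default settings, which replace counts flagged as outliers in groups of the sizes analysed. The fits were tested on simulated data of 10519 loci with a dispersion of 0.1, where the exact test recovered 199 of 200 loci changed by 2 on the log2 scale. The pools themselves had a common dispersion of 1.14, at which power was not measured. Named loci were those found in every pool, those with at least 30 reads in a pool holding at least 90% of the reads, those called, those of 1 diet only in 3 or more cows, the 10 others with most reads, and TBX15; further members are named for their counts after these were seen. The families, gene lists and rules were chosen with earlier results of these data known. Of 73 member names 72 matched RefSeq symbols.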

Additional observations from a re-analysis of the deposited data

Results flagged for a closer look

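In each named locus the control and the methionine-rich pools were examined for a highest or lowest pool that lay apart. Groups whose pools all had the same value were left out. The gap to the next pool, divided by the range of the group, was set against Dixon's 95% critical value (0.568 for 7 pools and 0.526 for 8). Of 38 groups 21 exceeded it, always with the highest pool. Of these 11 were control and 10 methionine-rich, where chance flags about 5% of groups with normal errors. The number cannot be read against that share, since 6 of the named loci were chosen because 1 pool held at least 90% of their reads. The gap made up 0.997 of the range for TBX15 (C2.2), 0.996 for TBX20 (C3.1), 0.994 for HOXD13 (C1.2), 0.967 for LHX8 (C2.2), 0.928 for HOXC11 (C2.1), 0.868 for HOXB3 (C4.1), 0.829 for PAX2 (C2.2), 0.815 for HOXC13 (C4.2), 0.777 for HOXB9 (C3.1), 0.719 for HOXC4 (C3.1) and 0.576 for HOXC9 (C1.1) among the control pools. Among the methionine-rich pools it was 1 for TBX19 (M6.1), 1 for TBX20 (M8.1, a single read), 0.993 for PAX2 (M5.1), 0.967 for HOXD10 (M6.1), 0.892 for HOXB9 (M5.1), 0.866 for HOXB2 (M6.1), 0.85 for HOXB8 (M6.1), 0.81 for LHX8 (M8.1), 0.718 for HOXB7 (M5.1) and 0.654 for HOXB3 (M6.1). The highest pool was thus not the same one throughout.

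Pool C3.2, which entered no comparison, held at least 3 reads of 4 loci at a level above every other control pool. PAX3 (XLOC_009819), a factor of neural crest and muscle, had 24 reads there, or 13.8 CPM, against at most 0.923 CPM in the other control pools and 5.89 CPM in the methionine-rich pools. HOXD10 had 3.44 CPM, PAX2 had 2.87 CPM and HOXD11 had 2.29 CPM, from 6, 5 and 4 reads. A floor of 3 reads corresponds to 1.72 CPM in this pool.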

How the results depend on the processing

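Adding pool C3.2 left 1 locus found in every pool, TBX3. With at least 10 reads as the limit, 14 loci were found in some pools and 25 had reads but were never found, with at least 1 CPM 14 and 16, and with 1 read 0 had reads but were never found. At 10 reads 69.4% of finds were shared by the other pool of the cow. The shares for pools of other cows and for all loci were not computed at that limit, so closeness within cows cannot be judged from it. Over fits leaving out 1 cow, 3 to 4 loci were found in every pool, 22 to 27 in some, 12 to 18 in exactly 1, 6 to 11 never and 22 to 25 had 0 reads, 3 to 14 were found in control only and 6 to 15 in methionine-rich only, and the difference in loci found per pool (1.16) ranged from -0.71 to 2.29. The number called higher in control was 2 with 16 pools and with the pools of a cow summed, and 1 to 3 without a cow. It was 0 in edgeR's quasi-likelihood fit, with voom, with 10 reads required in every pool, and with counts under 1% of a locus's highest set to 0, an alternative chosen after seeing the data, as was leaving out single pools. The number called higher in methionine-rich was 0 in those 4 settings, by DESeq2 and without C2.1 or M6.1, and 0 to 1 without a cow. Voom, fitted with a random term for cows, gave 421 unadjusted p under 0.05 over the 10519 tested loci. Of the 19 tested loci of the families, 0 were among them. HOXB2 reversed to -0.99 by DESeq2, -1.32 by voom, -1.10 without M6.1 and -1.36 without cow 6 (log2), with a range of -1.36 to 0.92 over cows left out, and over cows to -0.97 on the log2(CPM + 1) scale and to -15 CPM without M6.1. HOXD9 reversed to -0.015 without C2.1 and to -0.21 and -0.099 without cow 4 or 8 (range -0.21 to 0.61 over cows left out), and to -0.0075 CPM without M6.1. The cause was not tested. Pools with the same number in the 2 treatments deviated together at a mean correlation of -0.0069, so the number does not pair them, and a quasi-likelihood fit with the number as replicate block called 0 loci of the families in each direction. Depth limits the loci with under 3 reads.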

Other observations

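Developmental transcription factors of other families, from a list of homeobox and related genes, showed a like mixture of values. Of 52 loci 6 were found in every pool (DLX4, SIX5, OTX2, MSX1, MSX2 and PITX1), 20 in some, 9 in exactly 1 pool, and 17 had 0 reads. MSX1, a homeobox repressor also expressed in the uterus, had 6 to 270 reads in control and 18 to 1251 in methionine-rich pools, highest in M8.1. HAND1, a factor of trophoblast and heart, had 0 to 746 reads in control and 0 to 1180 in methionine-rich pools, with medians of 4 and 10. OTX2, a factor of the head and epiblast, had 36 to 129 reads in control and 6 to 226 in methionine-rich pools. Of the 20 tested, 0 passed edgeR's exact or quasi-likelihood test (3 at an unadjusted p under 0.05 by each), where 898 of all 10519 tested loci had an unadjusted p under 0.05 by the exact test.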
